A study of Mus musculus with 28 samples.

Results

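A group of 10 genes that lie near Relb on mouse chromosome 7 were described across 28 RNA-seq libraries of bone marrow-derived dendritic cells, that is, cells grown from mouse femur marrow in GM-CSF and IL-4. The genes were Crxos, Sae1, Slc1a5, Ccdc61, Dmpk, Ppp1r37, Zfp296, Ceacam19, Zfp61 and Zfp94. They were chosen by their measured levels, as genes within 5 Mb of Relb whose CPM differed in one direction between RelB-deficient and RelB-intact cells, with and without the type I interferon receptor IFNAR. These 10 were taken from 24995 genes measured. All mice were labelled C57BL/6, and the 4 genotypes were WT, RelBko, IFNARko (labelled IFNAR in the sample records) and IFNARko;RelBko, for which the labels name no targeting construct, sex, age or number of mice. Each genotype gave 7 libraries: 1 control labelled 1 h, 3 taken 1, 3 and 8 h after 0.1 µM CpG DNA (ODN 1668, a TLR9 ligand), and 3 taken 1, 3 and 8 h after Poly(I:C) of high molecular weight, which mimics viral double-stranded RNA and whose dose the labels state in 2 conflicting ways. Each combination of genotype, stimulus and time held 1 library, so there were no replicates, and the later times were set against the 1 h control.

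RelB belongs to the NF-kB family of transcription factors and acts mainly with p52 in the non-canonical pathway, and mice without it have defects in the maturation of dendritic cells. Type I interferons signal through IFNAR to the STAT and IRF factors that turn on antiviral genes. Relb stands in a gene-dense region of chromosome 7 beside Bcl3, a further regulator of NF-kB, and the cluster that holds Apoe. The neighbours described here belong to no single pathway: they include transcription regulators, enzymes and their regulators, surface proteins and a centrosome protein.

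Depth ran from 3269933 reads (IFNARko, 8 h after CpG) to 42227938 reads (WT, 8 h after CpG), and none of the 10 genes was at 0 in any library. Relb itself was lower without RelB by 0.39 ± 0.19 in RelBko against WT and by 0.51 ± 0.15 in IFNARko;RelBko against IFNARko (mean ± SD over 7 matched conditions, log2 of CPM + 1), in 14 of 14 pairs of libraries. At 8 h after CpG, RelBko and WT were nearly equal, with a difference of -0.003. Mean CPM of Relb without RelB was still 0.774 and 0.714 of that in the matched intact cells. Values per gene do not show which exons of Relb were read, so this is no full check of the genotype. Of 13 dendritic cell markers, 13 were at 1 CPM (reads per 1000000 reads of the library) or more in every library. Other lists differed between genotypes. The summed level of 14 macrophage and monocyte markers was 4447 to 6710 CPM in WT, 2008 to 4092 in RelBko, 1232 to 2854 in IFNARko and 1692 to 3540 in IFNARko;RelBko. The sum of 9 neutrophil markers was 68.0 to 125 CPM in WT and 193 to 315 in RelBko, against 70.9 to 183 in IFNARko and 104 to 183 in IFNARko;RelBko. T cell markers summed to 159 to 201 CPM in IFNARko and at most 47.6 elsewhere, NK cell markers to 174 to 412 in IFNARko and at most 97.3 elsewhere, and stromal markers to 20.4 to 39.0 in IFNARko;RelBko and at most 2.04 elsewhere. Mast cell and basophil markers summed to 6.16 to 22.0 CPM in WT and 4.45 to 13.4 in RelBko. Their sums were higher in every IFNAR-deficient library, with 25.4 to 38.0 CPM in IFNARko and 40.4 to 52.5 in IFNARko;RelBko. Xist was above 445 CPM in every WT and IFNARko;RelBko library and below 1 in the others. The other libraries held 221 to 298 CPM of 4 Y-linked genes in sum, so sex-linked transcripts also split each RelB comparison, in opposite directions. The part of these features in the differences below was not tested, and in bulk RNA fewer cells of a type and less RNA per cell cannot be told apart. RelB loss and whatever stretch of chromosome 7 was inherited with the targeted allele come with the same genotypes and cannot be told apart either.

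By the GRCm38 annotation, 7 of the 10 genes lie at lower coordinates than Relb (chr7:19606217-19629438, minus strand) and 3 at higher. From the far end these are Crxos (chr7:15882617-15904020), Sae1 (chr7:16320234-16387806), Slc1a5 (chr7:16781340-16798274), Ccdc61 (chr7:18890883-18910415), Dmpk (chr7:19083849-19093821), Ppp1r37 (chr7:19530800-19563076) and Zfp296 (chr7:19577287-19580656). Ceacam19 (chr7:19875742-19887965), Zfp61 (chr7:24291039-24301232) and Zfp94 (chr7:24301704-24316666) follow. The closest, Zfp296, starts 28.9 kb from Relb and the farthest, Zfp94, 4.70 Mb away. Zfp61 and Zfp94 are adjacent on the minus strand with 471 bases between them, and Ppp1r37 and Zfp296 are separated by 14210 bases. All 10 are protein coding. Zfp296 overlaps Gemin7 on the opposite strand by 309 bases, and the sources do not state whether counting used strand, so reads of this overlap may be shared.

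Promoter windows of 300 bases (250 before and 50 after the annotated start) were taken from RefSeq, build GRCm38.p6, for 8 of the 10 genes. Windows of 3 are shown: that of Crxos, with the largest difference of the 10 between RelBko and WT, that of Ccdc61, the most strongly lowered of the 10, and that of Zfp296, the nearest of the 10 to Relb and the one called higher at both 3 and 8 h after CpG. Capitals mark the match to the NF-kB consensus in Crxos (chr7:15895874-15896173, plus strand, 1 of 3 RefSeq windows of this gene) and the GC boxes (GGGCGG on either strand) in Ccdc61 (chr7:18910355-18910654, minus strand) and Zfp296 (chr7:19577037-19577336, plus strand).
Crxos: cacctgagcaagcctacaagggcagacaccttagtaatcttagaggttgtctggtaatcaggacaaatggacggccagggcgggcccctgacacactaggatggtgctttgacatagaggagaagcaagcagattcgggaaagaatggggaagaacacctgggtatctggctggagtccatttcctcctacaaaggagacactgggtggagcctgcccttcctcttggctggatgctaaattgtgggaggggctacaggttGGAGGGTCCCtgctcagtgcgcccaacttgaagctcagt
Ccdc61: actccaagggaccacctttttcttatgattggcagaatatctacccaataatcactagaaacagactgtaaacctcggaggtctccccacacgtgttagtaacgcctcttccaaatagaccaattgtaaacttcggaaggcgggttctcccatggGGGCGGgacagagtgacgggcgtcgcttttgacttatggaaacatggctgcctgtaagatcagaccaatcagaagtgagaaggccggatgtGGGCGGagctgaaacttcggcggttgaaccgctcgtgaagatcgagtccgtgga
Zfp296: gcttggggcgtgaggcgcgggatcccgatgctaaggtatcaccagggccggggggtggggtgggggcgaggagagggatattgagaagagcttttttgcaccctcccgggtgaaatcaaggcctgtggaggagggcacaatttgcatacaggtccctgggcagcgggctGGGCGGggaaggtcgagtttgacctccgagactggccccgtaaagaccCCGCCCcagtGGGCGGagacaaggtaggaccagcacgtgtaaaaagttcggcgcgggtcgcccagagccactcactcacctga
The 8 genes held 10 windows, so a gene with several windows had more chances of a match, and shares by gene and by window are unlike. The NF-kB consensus was matched in 1 of the 8 genes and 1 of the 10 windows. Of all 32851 windows of this length, 8.46% hold a match on either strand. GC boxes were found in 4 of the 8 genes (Crxos, Ccdc61, Ppp1r37 and Zfp296) and in 35.7% of all windows. The IRF repeat, GAAA followed after 2 bases of any kind by a further GAAA and searched on both strands, was in 0 of the 8 and in 3.44% of all windows. The NF-kB match of Crxos does not overlap the GC box of that window. These are matches of letters and do not show binding.

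The RelB-genotype differences below chose the 10 genes and are given as a description without a test. Each is a mean ± SD over 7 matched conditions on the log2(CPM + 1) scale, which understates the change of genes near 1 CPM. Differences of RelBko from WT are given first and those of IFNARko;RelBko from IFNARko second.

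**Figure D1:**
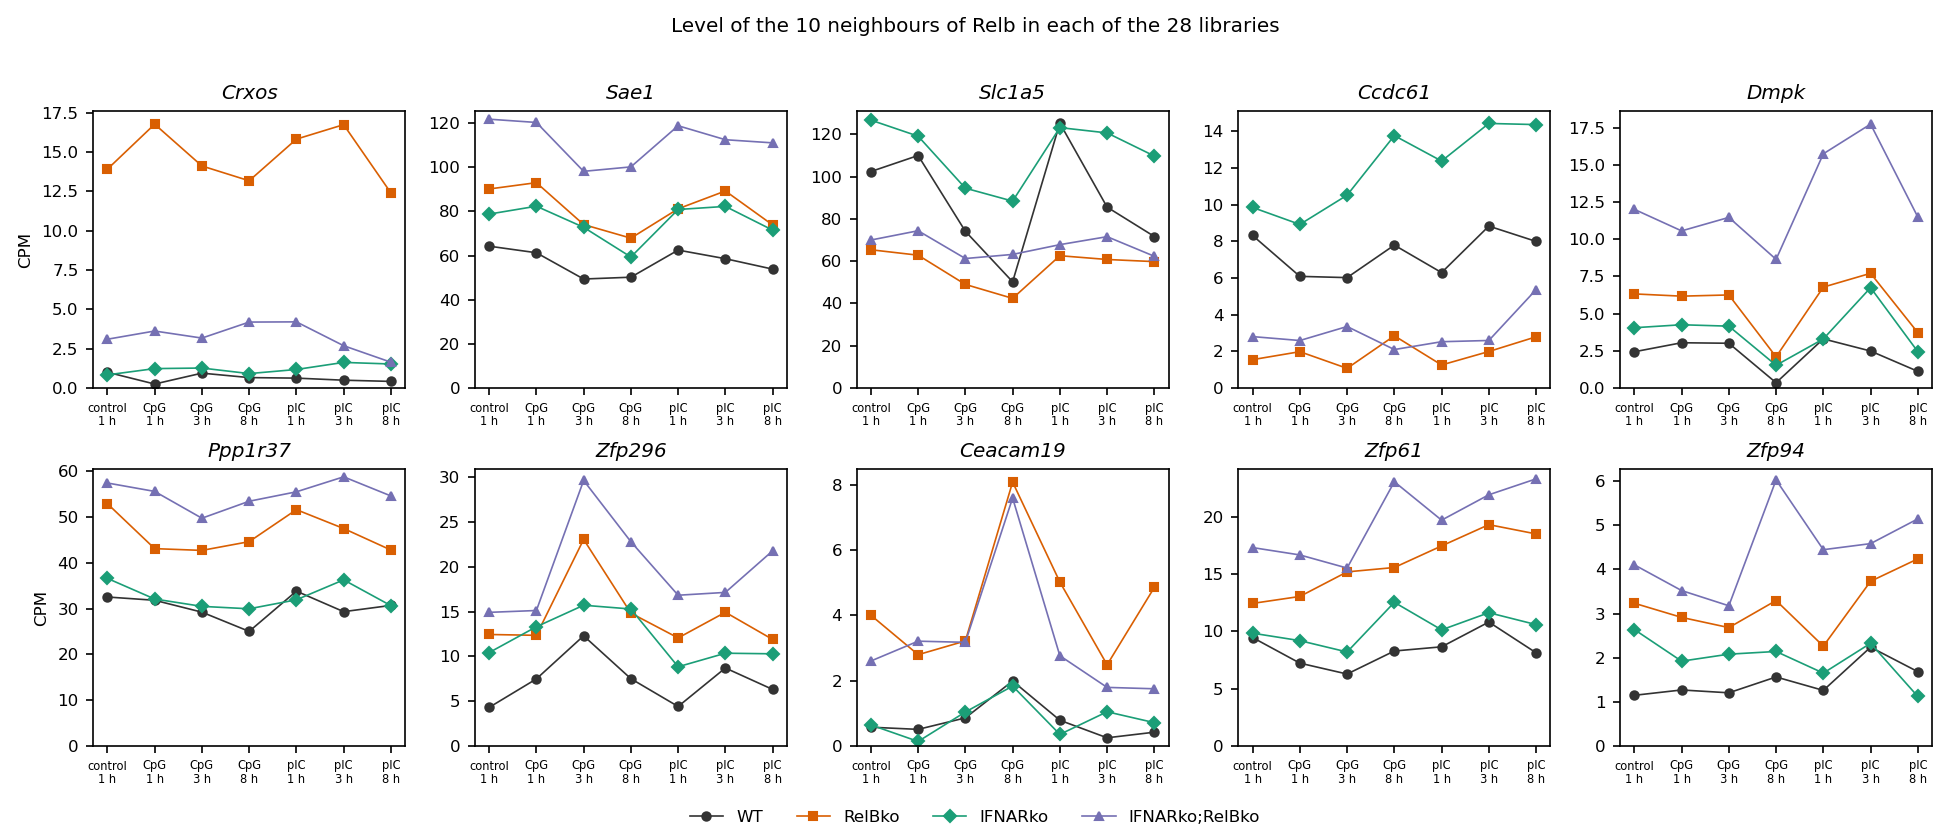
Level of each of the 10 genes in CPM (y axis, from 0, scaled per gene) in the 28 libraries, by condition (x axis; pIC, Poly(I:C)) and genotype (colour and marker, 1 library per point, joined for reading only). Crxos stands at 12.4 to 16.8 CPM in RelBko and at 4.21 CPM or less in the other genotypes, whereas Ccdc61 is lowest in both RelB-deficient genotypes.

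Among the transcription regulators, Crxos, a homeobox gene named for lying opposite Crx, showed the widest difference of the 10 between RelBko and WT. Its level had a lowest, median and highest value of 0.254, 0.629 and 1.00 CPM in WT and of 12.4, 14.1 and 16.8 CPM in RelBko. In IFNARko the 3 values were 0.837, 1.23 and 1.63 CPM, and in IFNARko;RelBko 1.64, 3.18 and 4.21 CPM. RelBko thus stood apart from the other 3 genotypes in every library. Neither RelB pair overlapped, although in the second pair the gap was only from 1.63 to 1.64 CPM. The difference was 3.28 ± 0.34 without and 0.91 ± 0.48 with the IFNAR deletion, a ratio of mean CPM of 23.3 and 2.63. At 8 h after Poly(I:C) the second difference was nearly absent, with 1.64 CPM in IFNARko;RelBko and 1.53 in IFNARko. In WT and IFNARko the gene rested on few reads, with a lowest count of 2 reads and 7 of 28 libraries under 10 reads.

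Zfp296, a zinc finger protein known from germ and pluripotent cells, had a lowest, median and highest level of 4.30, 7.48 and 12.3 CPM in WT and 11.9, 12.4 and 23.1 CPM in RelBko. The levels were 8.84, 10.4 and 15.7 CPM in IFNARko and, in IFNARko;RelBko, 14.9, 17.1 and 29.6 CPM. The groups overlapped in both backgrounds through RelB-intact libraries after CpG, WT at 3 h (12.3 CPM) and IFNARko at 3 and 8 h (15.7 and 15.3 CPM). Each matched condition was still higher without RelB. The differences were 0.94 ± 0.27 and 0.66 ± 0.29. Zfp61, a Krüppel-type zinc finger gene, had 6.28, 8.29 and 10.8 CPM in WT and 12.4, 15.6 and 19.3 CPM in RelBko. Its levels were 8.20, 10.1 and 12.5 CPM in IFNARko and 15.5, 19.7 and 23.3 CPM in IFNARko;RelBko. Neither pair overlapped, and the differences were 0.85 ± 0.26 and 0.86 ± 0.10. Zfp94, the adjacent zinc finger gene, was at 1.15, 1.27 and 2.24 CPM in WT and 2.26, 3.23 and 4.24 CPM in RelBko. IFNARko gave 1.12, 2.08 and 2.64 CPM and IFNARko;RelBko 3.18, 4.45 and 6.03 CPM. The groups did not overlap in either background, although in the first pair the gap was only from 2.24 to 2.26 CPM. The differences were 0.76 ± 0.18 and 0.86 ± 0.40, on 7 to 66 reads per library.

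The enzymes and enzyme regulators were all higher without RelB. Sae1 encodes a subunit of the enzyme that activates SUMO, a small protein attached to other proteins. It had a lowest, median and highest level of 49.4, 58.6 and 64.2 CPM in WT and 67.9, 81.2 and 93.0 CPM in RelBko. In IFNARko it was at 59.3, 78.8 and 82.3 CPM, and in IFNARko;RelBko at 98.1, 112 and 122 CPM. Neither pair overlapped, and the small differences of 0.50 ± 0.09 and 0.57 ± 0.11 varied little between conditions. Dmpk, the serine/threonine kinase gene whose human counterpart carries the repeat of myotonic dystrophy, was at 0.355, 2.49 and 3.30 CPM in WT and 2.10, 6.26 and 7.71 CPM in RelBko. Its levels were 1.53, 4.05 and 6.75 CPM in IFNARko and 8.65, 11.5 and 17.7 CPM in IFNARko;RelBko. The first pair overlapped through the low RelBko library at 8 h after CpG, and the second did not. The differences were 1.04 ± 0.20 and 1.54 ± 0.36, and IFNARko;RelBko held the 7 highest libraries of all 28. Ppp1r37, which encodes a regulatory subunit of protein phosphatase 1, was at 25.03, 30.7 and 33.8 CPM in WT and 42.7, 44.6 and 52.9 CPM in RelBko. The levels were 30.0, 31.9 and 36.6 CPM in IFNARko and, in IFNARko;RelBko, 49.8, 55.5 and 58.8 CPM. All 14 RelB-deficient libraries were above all 14 others, with differences of 0.60 ± 0.14 and 0.74 ± 0.07.

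The surface proteins moved in different directions. Ceacam19, a member of the carcinoembryonic antigen family of adhesion molecules, had a lowest, median and highest level of 0.249, 0.574 and 1.99 CPM in WT and 2.49, 4.01 and 8.09 CPM in RelBko. IFNARko gave 0.137, 0.713 and 1.83 CPM and IFNARko;RelBko 1.75, 2.76 and 7.60 CPM. The first pair did not overlap, and the second overlapped only because IFNARko reached 1.83 CPM at 8 h after CpG. The differences were 1.58 ± 0.28 and 1.18 ± 0.51, with 1 to 84 reads per library and 11 of 28 libraries under 10 reads. Slc1a5, the transporter that carries glutamine and other neutral amino acids, was lower without RelB. It was at 50.2, 85.5 and 125 CPM in WT and 42.4, 60.8 and 65.4 CPM in RelBko. In IFNARko it was at 88.4, 119 and 127 CPM, and in IFNARko;RelBko at 61.2, 67.8 and 74.4 CPM. The first pair overlapped through the WT library at 8 h after CpG. The differences were -0.57 ± 0.27 and -0.72 ± 0.14. Ccdc61, a coiled-coil protein of the centrosome and basal body, was the other lowered gene. It was at 6.02, 7.79 and 8.83 CPM in WT and 1.07, 1.98 and 2.85 CPM in RelBko. The levels were 8.92, 12.4 and 14.4 CPM in IFNARko and, in IFNARko;RelBko, 2.10, 2.59 and 5.36 CPM. All 14 RelB-deficient libraries were below all 14 others. The differences were -1.53 ± 0.29 and -1.70 ± 0.38, and mean CPM in RelB-deficient cells was 0.263 and 0.253 of that in the matched intact cells.

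**Figure D2:**
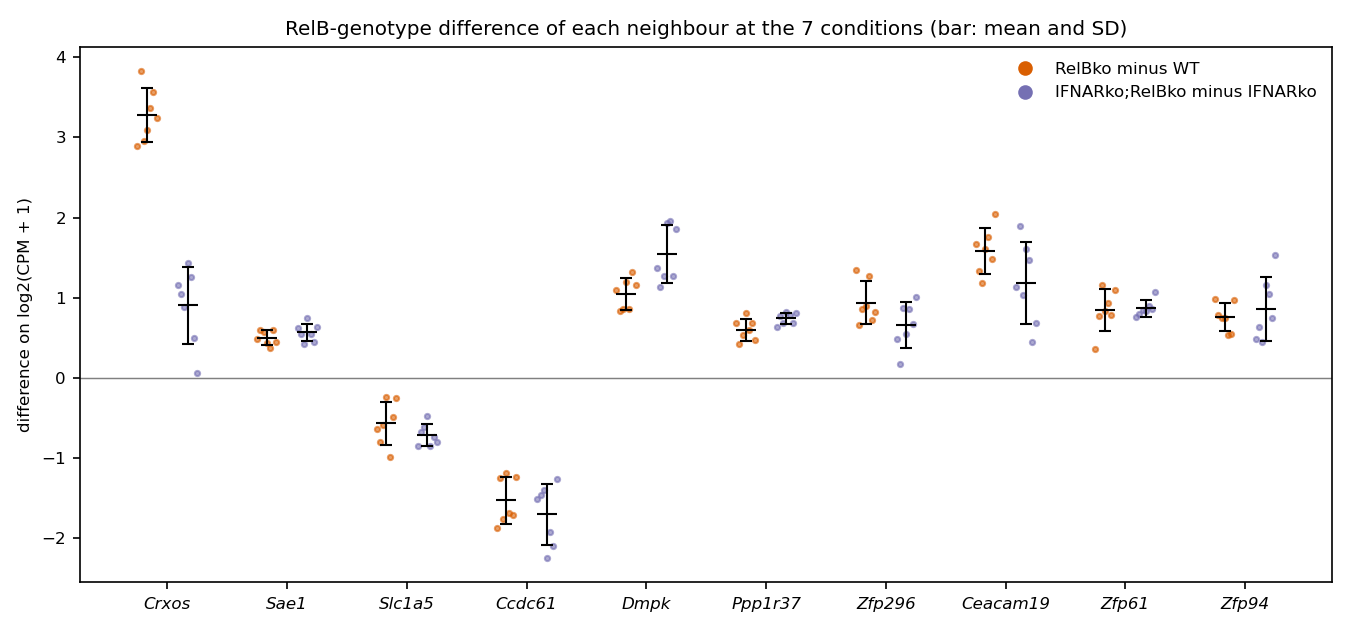
RelB-genotype difference on log2(CPM + 1) (y axis) for each gene in order along the chromosome (x axis); coloured points are the 7 matched conditions, and the black mark and bars are their mean and SD. Of the 10 genes, 8 lie above 0 and 2, Slc1a5 and Ccdc61, lie below 0 at every condition, and Crxos has the widest gap between the backgrounds, with means of 3.28 and 0.91.

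Put together, 8 genes were higher and 2 lower without RelB, and the sign was the same in 14 of 14 matched pairs for each, as the choice of the genes required. RelBko and WT libraries did not overlap for 7 of the 10, beside 2.83% of all 12972 genes tested. IFNARko;RelBko and IFNARko did not overlap for 8 of the 10, beside 11.7% of all genes. All 14 RelB-deficient libraries stood apart from all 14 RelB-intact libraries for 3 (Crxos, Ppp1r37 and Ccdc61), beside 0.324%. Nothing is read from these counts, since the same contrast chose the genes. Per kilobase of exon the genes spanned a wide range of mean CPM, from 0.686 for Ceacam19 and 0.790 for Zfp94 to 19.5 for Slc1a5 and 31.3 for Sae1.

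The 10 genes were part of a wider set of neighbours with a RelB-genotype difference. Of 146 genes annotated within 5 Mb of Relb, 91 had at least 1 CPM in at least 3 libraries. Of these, 25 (27.5%) had 1 sign in 14 of 14 pairs, against 13.1% of all genes tested. A difference of 1 sign in all 14 pairs and of at least 0.5 on the log2 scale in both backgrounds was found in 15 of the 91 (16.5%), 9 higher and 6 lower, against 361 of 12972 genes tested (2.78%, with 1.69% higher and 1.09% lower). The 10 chosen genes all met this description, and 5 of the other 81 did (6.17%).

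The 5 others were Six5, Ckm, Apoc2, Apoe and Plaur. Six5, a homeobox gene 772 bases from Dmpk, was higher without RelB by 0.82 and 0.85. Apoe, the apolipoprotein E gene that is also on the macrophage marker list, was lower by the largest amount, with differences of -2.96 and -1.30. Apoc2, an apolipoprotein gene of the same cluster with a mean of 0.661 CPM, differed by -1.19 and -0.57. Ckm, the muscle creatine kinase gene with a mean of 0.486 CPM, differed by -0.52 and -0.75. Apoc2 and Ckm rested on few reads, with 20 and 25 of 28 libraries under 10 reads. Neither went above 0.36 CPM without RelB, so both passed the limit of 1 CPM through RelB-intact libraries only. Both count among the 6 lower genes. Plaur, the urokinase receptor gene, differed by -0.56 and -0.75. Bcl3 did not meet the description, with differences of -0.13 ± 0.32 and -0.41 ± 0.22.

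The share of genes that met the description was 20.9% within 1 Mb (9 of 43) and 12.5% between 2 and 5 Mb (6 of 48), and no tested gene lay between 1 and 2 Mb. It was 1.72% between 5 and 10 Mb (2 of 116), 2.08% between 10 and 20 Mb (3 of 144) and 3.66% farther along chromosome 7 (24 of 655). Other chromosomes gave 2.67% (317 of 11852). The shares within 5 Mb include the 10 genes, which were chosen by this same difference. Of the other 81 genes within 5 Mb, 5 met the description (6.17%). Genes right beside Relb were not uniformly different. Clptm1, 25.4 kb away, differed by -0.10 and -0.11, Tomm40, 95.1 kb away, by 0.04 and 0.01, and Trappc6a, 97.8 kb away, by -0.05 and 0.09. Gemin7, which overlaps Zfp296, differed by 0.46 and 0.43. Among genes near the size limit, Sae1 was just inside with a smaller difference of 0.50, and Arhgap35, Eml2 and Snrpd2 were just outside with 0.48, 0.48 and 0.44. At the distance limit the outermost tested gene inside was Ethe1 at 4.98 Mb, with differences of -0.21 and -0.28, and the nearest outside on that side was Phldb3 at 5.005 Mb, with -0.19 and -0.33.

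**Figure D3:**
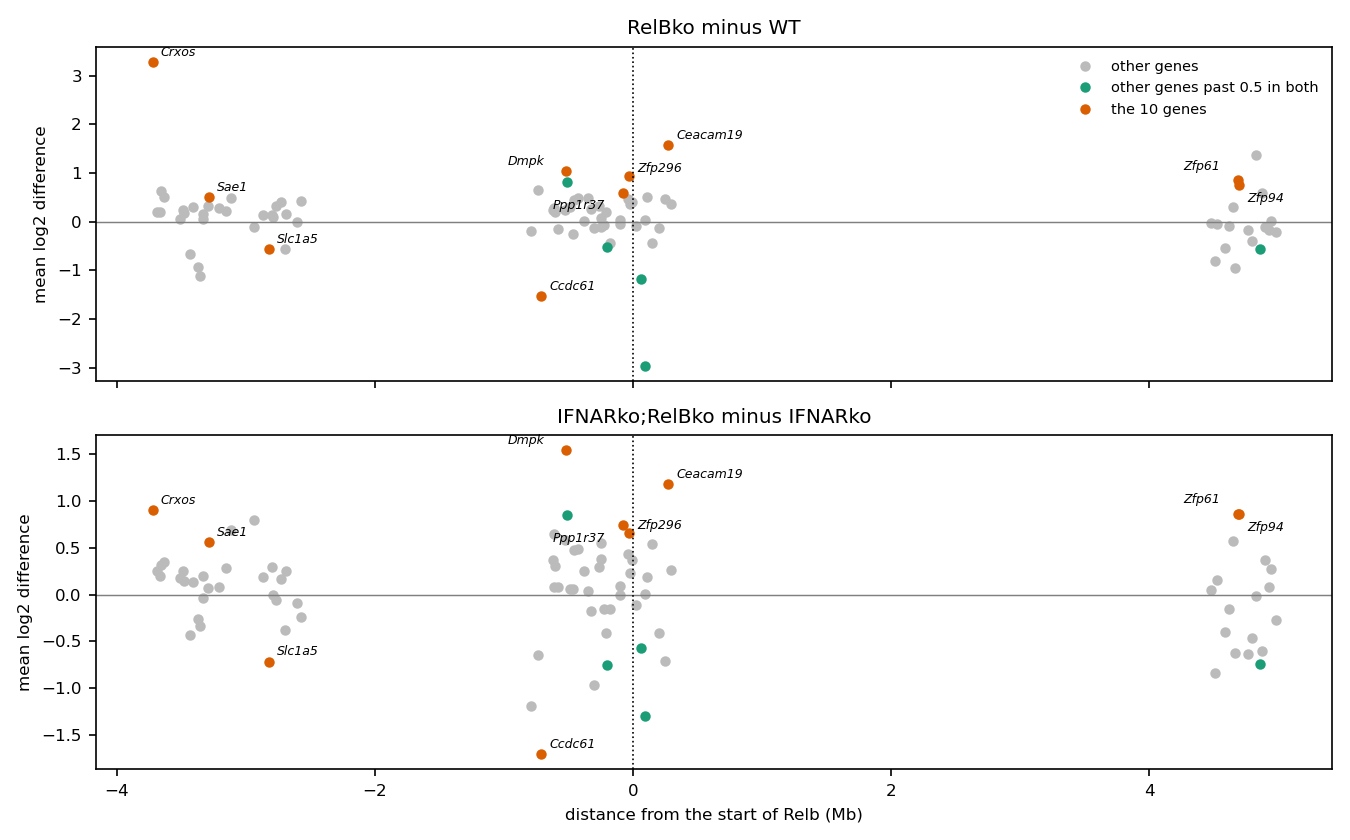
Mean RelB-genotype difference (y axis, log2 of CPM + 1) of the 91 tested genes within 5 Mb against distance from Relb in Mb (x axis), for RelBko minus WT (top) and IFNARko;RelBko minus IFNARko (bottom); orange marks the 10 genes and green the 5 others past 0.5 with 1 sign in both. Genes of both directions are interspersed, with Crxos at 3.28 and Apoe at -2.96 as the extremes of the top panel.

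Ifnar1 on chromosome 16, a receptor subunit gene that was lower by 0.69 and 0.64 in the IFNAR-deficient genotypes, was taken as the site of the other deletion. The labels name no targeting construct, so this site is assumed, and how alike the regions around Relb and Ifnar1 are is not known. Within 5 Mb of it 4 of 50 genes (8%) met the same description for the IFNAR difference, against 8.34% of all genes. The RelB difference met the description for 2 of 50 genes (4%) around Ifnar1, and the IFNAR difference for 6 of 91 (6.59%) around Relb. No test was made of these shares, because the region around Relb was chosen with its differences known.

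**Figure D4:**
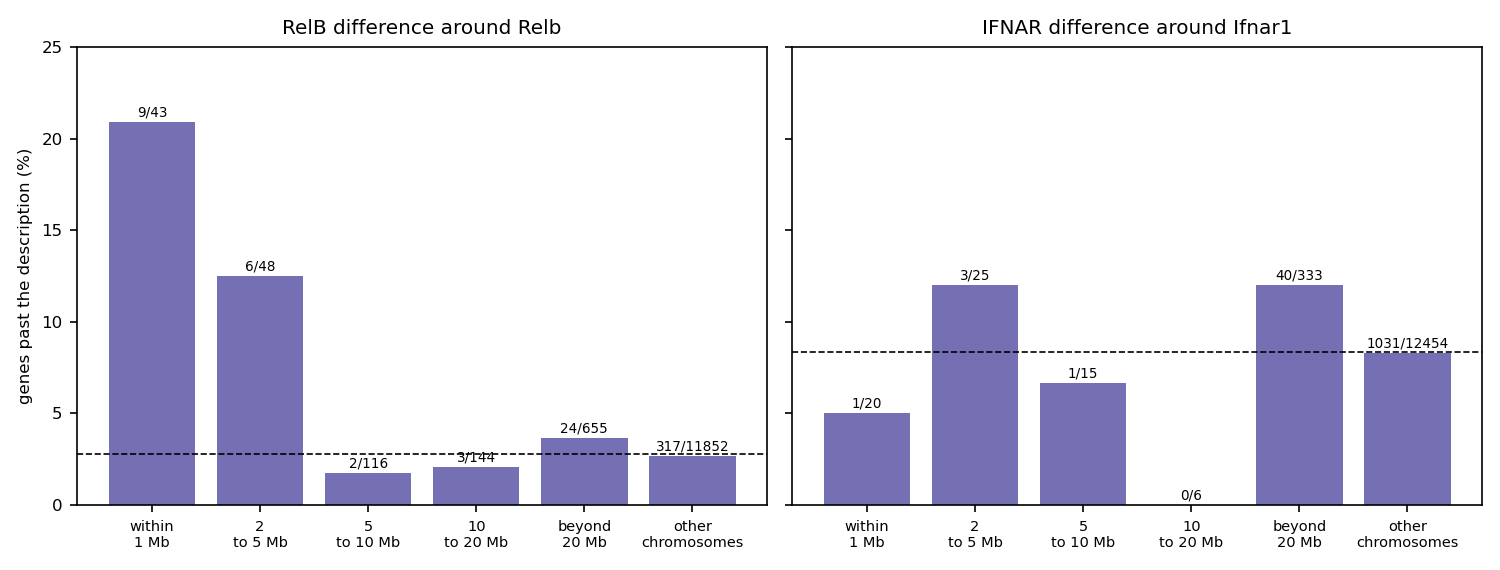
Percent of tested genes that met the description (y axis) by distance from Relb for the RelB difference (left) and from Ifnar1 for the IFNAR difference (right); numbers over the bars are genes meeting it and genes tested, and the dashed line is all genes. Around Relb the bars within 5 Mb are 20.9% and 12.5% over a level of 2.78%, while around Ifnar1 they lie on both sides of 8.34%.

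IFNAR deficiency was not part of the choice of the genes and was tested with limma on all 28 libraries. The spread was that left once the mean of each genotype and of each condition had been fitted. The 7 libraries of a genotype thus took the place of replicates. Spread between replicate mice was not measured, so the p-values show only how steady a difference was across conditions. Errors of tested values are standard errors (SE), and calls are at a Benjamini-Hochberg adjusted p under 0.05 over all genes. Of the 10 genes, 8 were higher and 1, Crxos, was lower in IFNAR-deficient cells. This is to be read against 69.4% of all genes called, 53.9% higher and 15.5% lower, and against an all-gene median of 0.15. The median of the 10 was 0.31. Dmpk had the largest rise, 0.83 ± 0.09 (limma adjusted p = 9.7e-09). Zfp296 rose by 0.55 ± 0.07 (limma adjusted p = 2.3e-07), Ccdc61 by 0.55 ± 0.09 (6.6e-06) and Sae1 by 0.43 ± 0.03 (2.2e-12). Zfp94, Slc1a5, Zfp61 and Ppp1r37 rose by 0.32, 0.30, 0.28 and 0.17. With libraries scaled by median ratios, which moved the median of all genes by -0.15 and the calls from 6988 higher and 2013 lower to 3888 and 3853, Ppp1r37 (0.01), Zfp61 (0.12) and Zfp94 (0.20) were no longer called. The other 5 that rose were still called higher under that scaling, and Ceacam19 (-0.16 ± 0.10, limma adjusted p = 0.18 in the first scaling) was called lower at -0.26 with an adjusted p of 0.033.

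The IFNAR value of Crxos joined unlike pairs. The fitted difference was -0.73 ± 0.10 (limma adjusted p = 2.0e-07). IFNARko;RelBko was lower than RelBko by 1.92 in the mean and in 7 of 7 conditions, with 1.64 to 4.21 against 12.4 to 16.8 CPM. IFNARko was higher than WT in 6 of 7 conditions, with a mean difference of 0.46. The lower level was thus measured between the RelB-deficient genotypes, and the difference between these contrasts was not tested. Dmpk, in contrast, was higher in IFNARko than in WT by 0.58 and in IFNARko;RelBko than in RelBko by 1.08.

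CpG raised 2 and lowered 4 of the genes by 8 h. These responses were tested as the change from control averaged over the 4 genotypes, in 4 control and 12 CpG libraries with genotype as a block. At 1 h the limma test called 0 of the 10 genes, and 0 had an unadjusted p under 0.05, beside 0.508% of all genes called and 781 with an unadjusted p under 0.05. At 3 h 4 of the 10 were called, 1 higher and 3 lower, beside 44.2% of all genes, 12.4% higher and 31.9% lower. At 8 h 6 were called, 2 higher and 4 lower, beside 54.1%, 15.3% higher and 38.8% lower. The shares were thus near those of all genes.

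Zfp296 was the one gene of the 10 called higher at 3 h. In WT its level was 4.30 CPM in the control and 12.3 CPM at 3 h, in RelBko 12.4 and 23.1 CPM. In IFNARko it was 10.4 and 15.7 CPM, and in IFNARko;RelBko 14.9 and 29.6 CPM. The rise was seen in all 4 genotypes and was 0.92 ± 0.14 (limma adjusted p = 4.9e-05). At 8 h it was 0.50 ± 0.14 (limma adjusted p = 0.0049), again in 4 of 4 genotypes, but 0.38 with an adjusted p of 0.066 without the 2 shallowest libraries. Relb and Bcl3 rose as well at 3 h, by 0.86 and 1.44.

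Ceacam19 was called higher at 8 h and not at 3 h. In the control and at 8 h after CpG its level was 0.574 and 1.99 CPM in WT, 4.01 and 8.09 in RelBko, 0.643 and 1.83 in IFNARko, and 2.60 and 7.60 in IFNARko;RelBko. The rise was 0.96 ± 0.17 (limma adjusted p = 0.00015), in 4 of 4 genotypes. Dmpk fell at the same time in 4 of 4 genotypes, from 2.44 to 0.355 CPM in WT, 6.33 to 2.10 in RelBko, 4.05 to 1.53 in IFNARko and 12.01 to 8.65 in IFNARko;RelBko. The log2 change was -1.004 ± 0.177 (limma adjusted p = 0.00017), with the smallest change in IFNARko;RelBko.

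Slc1a5 fell by 0.37 ± 0.11 at 3 h and by 0.57 ± 0.11 at 8 h (limma adjusted p = 0.01 and 0.00029), in 4 of 4 genotypes. Its level in WT dropped from 102 CPM in the control to 50.2 CPM at 8 h, and in IFNARko;RelBko from 70.0 to 63.2 CPM. Sae1 fell by 0.27 ± 0.07 and 0.36 ± 0.07 (limma adjusted p = 0.0036 and 0.00025) and Ppp1r37 by 0.23 ± 0.08 and 0.25 ± 0.08 (0.024 and 0.013). Median-ratio scaling moved the all-gene median by 0.13 at 3 h and 0.15 at 8 h and changed the split of all calls from 1558 higher and 4016 lower to 2275 and 2328 at 3 h, and from 1925 and 4892 to 2948 and 3137 at 8 h. Under it the 3 falls at 3 h were not called, with -0.23 for Slc1a5, -0.12 for Sae1 and -0.09 for Ppp1r37. At 8 h the fall of Ppp1r37 was not called at -0.08 either, and Zfp61 was called higher at 0.37. At 3 h the call of Slc1a5 was also lost without RelBko (-0.36, adjusted p = 0.074) and without IFNARko (-0.35, 0.060), and that of Ppp1r37 without each of RelBko, IFNARko and IFNARko;RelBko (-0.20 to -0.24, adjusted p = 0.058 to 0.13). At 8 h the call of Ppp1r37 was lost without WT, RelBko or IFNARko (-0.21 to -0.25, adjusted p = 0.050 to 0.059).

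**Figure D5:**
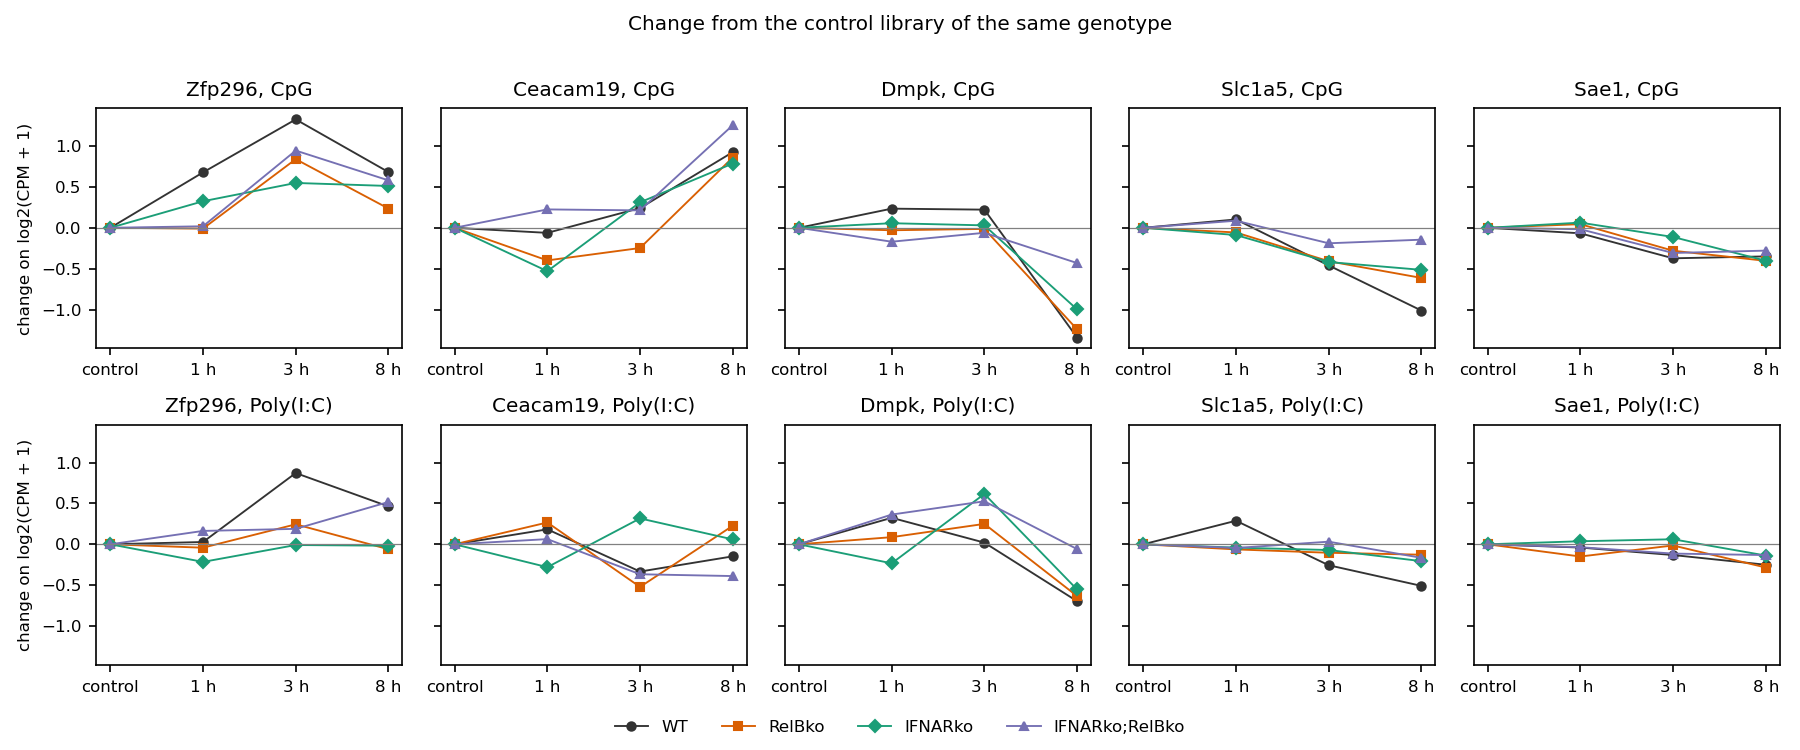
Change on log2(CPM + 1) (y axis) from the control library of the same genotype at 1, 3 and 8 h (x axis, evenly spaced) after CpG (top) and Poly(I:C) (bottom) for 5 of the genes; each point is 1 library against 1 control. After CpG, Zfp296 is above 0 at 3 h and Ceacam19 at 8 h in all 4 genotypes, and Dmpk and Slc1a5 are below 0 at 8 h, by -1.34 and -1.01 in WT.

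At 3 and 8 h fewer of the 10 genes were called after Poly(I:C) than after CpG, and so were fewer of all genes. The all-gene shares were 23.6% and 43% after Poly(I:C), against 44.2% and 54.1% after CpG. The tests of Poly(I:C) share the 4 control libraries with those of CpG. At 1 h the limma test called 0 of the 10, 0 with an unadjusted p under 0.05, beside 0.331% of all genes called and 1286 with an unadjusted p under 0.05. At 3 h 1 was called, beside 23.6% of all genes, 13.9% higher and 9.71% lower: Zfp61 rose by 0.33 ± 0.11 (limma adjusted p = 0.038), with higher values in 4 of 4 genotypes. Median-ratio scaling changed the split of all calls at 3 h from 1758 higher and 1233 lower to 1527 and 1655, and kept that of Zfp61 (0.30). The call of Zfp61 was lost with no filter on low values (adjusted p = 0.067), with quantile normalisation (0.28, 0.059), without RelBko (0.24, 0.26), without IFNARko (0.37, 0.083) and without IFNARko;RelBko (0.33, 0.097). At 8 h 4 were called, 1 higher and 3 lower, beside 43% of all genes, 18.9% higher and 24.1% lower.

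The gene that rose at 8 h was Ccdc61, by 0.44 ± 0.16 (limma adjusted p = 0.029), from 1.55 to 2.79 CPM in RelBko, 9.84 to 14.4 in IFNARko and 2.80 to 5.36 in IFNARko;RelBko. In WT it was 8.32 and 7.99 CPM. Dmpk fell by 0.49 ± 0.16, Slc1a5 by 0.25 ± 0.09 and Sae1 by 0.20 ± 0.06 (limma adjusted p = 0.02, 0.036 and 0.0078), each in 4 of 4 genotypes. Without the RelBko libraries 0 of the 10 genes were called at 8 h, and the adjusted p of these 4 genes was then 0.070 to 0.14. The values without RelBko were 0.40 for Ccdc61, -0.44 for Dmpk, -0.29 for Slc1a5 and -0.17 for Sae1. The call of Ccdc61 was also lost without IFNARko (0.42, adjusted p = 0.093) and without IFNARko;RelBko (0.34, 0.11), and that of Dmpk without WT (-0.42, 0.057) and with voom (-0.43, 0.066). That of Slc1a5 was lost with median-ratio scaling (-0.21, adjusted p = 0.053), with no filter (0.056), with plain eBayes (0.069), without IFNARko (-0.27, 0.10) and without IFNARko;RelBko (-0.28, 0.059).

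Whether the responses differed between RelB-deficient and RelB-intact cells was tested on the mean of the changes at 3 and 8 h, RelB-deficient minus RelB-intact. After CpG the limma test called 0 of the 10 genes, and 0 had an unadjusted p under 0.05, beside 2 of all genes (0.0154%) and 658 with an unadjusted p under 0.05. The 10 estimates lay between -0.12 and 0.36, with SE of 0.11 to 0.35. After Poly(I:C) it called 0 of the 10 and 0% of all genes. Of the 10, 1, Zfp61, had an unadjusted p under 0.05 (0.39 ± 0.18), as did 459 of all genes. With limma voom on reads recovered from the values, 1 of all genes was called after Poly(I:C). For Zfp296 the estimate after CpG was -0.12 ± 0.24, and for Slc1a5 0.26 ± 0.18. With standard errors of up to 0.35 only large differences could be called, so the absence of calls does not show that the responses were alike.

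Sae1 and Slc1a5 were set beside other genes of their pathways. Sae1 works with Uba2 as the SUMO-activating enzyme, and the Senp genes encode proteases that remove SUMO. Of 18 genes of the SUMO pathway, 1 met the description of the RelB difference, Sae1 itself, which was chosen by this difference. Uba2 differed by 0.16 and 0.12. The list medians of 0.08 and 0.14 were near those of all genes, 0.08 and 0.10. In IFNAR-deficient cells 12 of the 18 were called (66.7%, against 69.4% of all genes), 11 higher and 1, Senp2, lower. Among the higher were Rangap1 (0.55 ± 0.04) and Uba2 (0.42 ± 0.03). After CpG 1 was higher and 7 lower at 3 h (44.4% called, against 44.2% of all genes), and 2 were higher and 6 lower at 8 h (44.4%, against 54.1%). These directions hold only for library totals: with median-ratio scaling 6 were higher and 7 lower in IFNAR-deficient cells, 4 higher and 1 lower at 3 h after CpG and 6 higher and 2 lower at 8 h. Uba2 fell by 0.25 ± 0.07 at 3 h (limma adjusted p = 0.006), and Sumo3 by 0.46 ± 0.09 at 8 h (0.00066). After Poly(I:C) 1 rose and 1 fell at 3 h (11.1% called, against 23.6%), and 3 rose and 4 fell at 8 h (38.9%, against 43%), with Senp7 up by 0.91 ± 0.10 at 8 h.

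Slc1a5 was set beside 13 further genes of neutral amino acid transport and glutamine use. Of these 14, Slc1a5, which was chosen by the RelB difference, and Slc7a11, the cystine-glutamate exchanger, met its description, beside 2.78% of all genes. Beside all-gene medians of 0.08 and 0.10, the list medians were -0.20 and -0.15. In IFNAR-deficient cells 8 were higher and 4 lower (85.7% called, against 69.4% of all genes). After CpG 6 rose and 6 fell at 3 h (85.7%, against 44.2%), and 3 rose and 6 fell at 8 h (64.3%, against 54.1%). With median-ratio scaling the counts were 6 higher and 6 lower for IFNAR, 7 and 5 at 3 h and 4 and 6 at 8 h. Slc7a5, the large neutral amino acid transporter, fell by 1.90 ± 0.13 at 8 h. Slc1a4, the closest relative of Slc1a5, fell by 1.66 ± 0.18, while Slc7a8 rose by 1.04 ± 0.11. After Poly(I:C) 3 rose and 1 fell at 3 h (28.6%, against 23.6%), and 2 rose and 5 fell at 8 h (50%, against 43%), with Slc7a5 down by 2.43 ± 0.14. At 1 h no gene of either list was called after either stimulus by limma; 1 amino acid gene with CpG and 3 with Poly(I:C), and 0 and 2 of the SUMO genes, had an unadjusted p under 0.05. None of either list differed in its response between RelB states by the adjusted test, with 1 gene of each list under an unadjusted p of 0.05 after CpG and 0 after Poly(I:C).

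The genes whose pattern over the 28 libraries was most like those of the neighbours named here were mostly on other chromosomes. So were most tested genes with a position, 11852 of 12859. Likeness was Pearson's r of log2(CPM + 1) over 11965 genes with a mean of at least 1 CPM, given as a description, since the libraries share genotypes and control cultures. Zfp94 was most like Zfp61 (r = 0.90), another of the 10. Crxos was most like Wdfy1 on chromosome 1 (0.88), Enah (0.85) and Nid1 (0.83). Ccdc61 was most like Slc15a2 on chromosome 16 (0.94) and then 2610034B18Rik on chromosome 7 (0.93). Dmpk was most like Eno3 on chromosome 11 (0.95), with Supt5 on chromosome 7 at rank 3 (0.93). Slc1a5 was most like Hmgn2 (0.91), Ppp1r37 like Lrrc16b (0.94) and then Retnlg (0.92), which is on the neutrophil marker list, Zfp296 like Paqr8 (0.94), Ceacam19 like C3 (0.86) and Zfp61 like Rims3 (0.92). Between the 10, r ran from -0.82 for Crxos and Ccdc61 to 0.92 for Sae1 and Dmpk, a range set in part by the choice of genes with opposite RelB differences.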

How the data were processed

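Polyadenylated RNA of 28 dendritic cell libraries was read as single-end 50-base reads from a stranded kit, per the labels. The deposited signal values, in 2 sheets made by the authors, are counts per 1000000 reads (CPM) with 1 added, from value checks; per the submitters' processing notes, cutadapt, edgeR and mm10 were used, and the aligner, counter, annotation and use of strand are not given in the sources used here. CPM used library totals with no further factor. Entries with no gene name (2161 entries and 0.0730% to 0.116% of a library in the CpG sheet, 2 entries in the Poly(I:C) sheet) and 11 symbols on several lines were left out.

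Tests used limma 3.58.1 in R 4.3.3 (statmod 1.5.0; trend and robust eBayes) on log2(CPM + 1), two-sided, for genes with at least 1 CPM in at least 3 libraries of the fit, with Benjamini-Hochberg adjustment over all genes; the fits were checked on simulated data. With 1 library per group, the spread comes from genotypes and conditions treated as repeats, and libraries may not be separate cultures or mice, so p-values measure only the spread between these samples. A count test planned as an alternative was not run, and limma voom on reads recovered from the values took its place. Positions are from GENCODE M21 (GRCm38), matched by symbol, and distances are start to start. Named genes were the 10 genes, Relb, Ifnar1, Bcl3, the other neighbours that met the description or bordered its limits, the list genes of lowest adjusted p and the most alike genes (that of Sae1 is not reported here); Clptm1, Tomm40, Trappc6a and Gemin7 were named after their values were seen. The genes, lists and tests were chosen with earlier results of these data known. Alternatives were another pseudocount, filter, scaling, moderation, distance and size, and leaving out shallow libraries, genotypes or conditions; quantile normalisation and voom were chosen after seeing the data.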

Additional observations from a re-analysis of the deposited data

How the results depend on the processing

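No paired analysis was possible because each group holds 1 library and so no replicate numbers that could pair libraries; conditions were matched, and genotype was a block, in the comparisons themselves. TMM scaling and the edgeR count test were not run. Genes called 1 h after CpG (64) numbered 109 without the 2 shallowest libraries, 30 without RelBko and 36 without IFNARko. Genes called 1 h after Poly(I:C) (42) numbered 7 with median-ratio scaling, 26 with quantile normalisation and 0 with plain eBayes, and 25, 0, 6 and 17 without WT, RelBko, IFNARko and IFNARko;RelBko. Without RelBko the calls after Poly(I:C) fell from 2991 to 1184 at 3 h and from 5457 to 3442 at 8 h. RelB dependence of the CpG response (2 genes) was called for 1 gene with no filter, with median-ratio scaling, with plain eBayes and with quantile normalisation, and that of the Poly(I:C) response (0) for 1 with voom. Of the neighbours of Relb, 15 met the description within 5 Mb, 9 within 2 Mb and 4 at a size of 1 (0.439% of all genes). Of the neighbours of Ifnar1, 4 did within 5 Mb, 1 within 2 Mb and 0 at a size of 1. The split of calls into higher and lower moved from 49 and 15 to 55 and 29 with quantile normalisation 1 h after CpG, from 41 and 1 to 6 and 1 with median-ratio scaling 1 h after Poly(I:C), and from 6988 and 2013 to 4263 and 3562 with quantile normalisation for the IFNAR difference. The cause of these changes was not tested. For values of single genes, 335 alternatives to 44 results gave 288 on the same side of the threshold or within 1 SD, 40 that kept direction but lost the call and 7 differences that moved by more than 1 SD. None of the 335 reversed. Of the 10 genes, depth limits Ceacam19 and Crxos most, since 11 and 7 libraries held fewer than 10 reads, and reads cover counting error only.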
